A study of Mus musculus with 16 samples.

Results

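The enzymes that build gangliosides and their sphingolipid precursors were followed in mouse cerebellum with and without a working Npc1 gene. The set held 10 genes, Sptlc1, Sptlc2, Sgms1, Ugcg, B4galt6, St3gal5, St8sia1, B4galnt1, B3galt4 and St3gal2. They were found among the 41174 non-control probes of an Agilent 1-colour mouse array, where they had 19 probes. Probes were matched to current symbols, mostly through their accessions. Sgms1 appears in the files under its older symbol Tmem23. All 10 were among the 17983 genes tested, of 27670 on the array.

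The mice carried the Npc1m1N allele of the strain BALB/cNctr-Npc1m1N/J on a BALB/c background and were bred in house from heterozygous parents. Whole cerebella were taken at 3 weeks of age from Npc1-/- mice and from their Npc1+/+ (wild-type) counterparts, with 4 arrays for each genotype and 500 ng of total RNA per array. No agent or other allele is named in the labels, and the Npc1 loss is present in every cell of the mouse. Arrays are named here by genotype and the replicate number in the sample titles. Cerebella of both genotypes were also run on Illumina arrays, whose table gives probes by number only and is not used here.

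Sphingolipids are made from serine and palmitoyl-CoA by serine palmitoyltransferase in the endoplasmic reticulum, and ceramide is the branch point of the pathway. In the Golgi, ceramide becomes sphingomyelin, or becomes glucosylceramide and then lactosylceramide, to which sialyltransferases and glycosyltransferases add sugars stepwise to make gangliosides, the sialic acid lipids that neurons carry at high density. Npc1 is a late endosomal and lysosomal membrane protein that exports cholesterol. Mice and patients without it have Niemann-Pick type C disease, in which cholesterol, sphingosine, sphingomyelin and gangliosides collect in cells of the brain.

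The probes of the 3 enzymes that the array measures with 3 probes each are shown first, because they let the same gene be read at separate places. Each line gives the last 30 bases of a 60-base probe as deposited, 5′ to 3′, with its mm7 position. Capitals mark AATAAA, the hexamer best known as the polyadenylation signal.
Ugcg A_51_P332717, chr4:59259886-59259945, plus strand: ccatgcaaaactctggttcgtactcaattt
Ugcg A_51_P481342, chr4:59263720-59263780, plus strand: cgttttgctgagcacgtttgtgtctgtcgg
Ugcg A_52_P95910, chr4:59263850-59263909, plus strand: aaatccaaatggctggacagacttctgtaa
St8sia1 A_51_P455356, chr6:142968119-142968178, minus strand: tgtgcccgtcaaatagatgaaccaaatttt
St8sia1 A_52_P108850, chr6:142913022-142913081, minus strand: atttggaaacgtaccctgtgAATAAAatgg
St8sia1 A_52_P319055, chr6:142914536-142914595, minus strand: cagcttagattcattatccttcatgtttta
Sptlc2 A_51_P321331, chr12:85345305-85345364, minus strand: aagaccctggaagaaaatcttaatccttgt
Sptlc2 A_52_P200244, chr12:85312414-85312473, minus strand: agacatttctgaagctactgaaggtggcca
Sptlc2 A_52_P59916, chr12:85311144-85311203, minus strand: tctgttttcatgccctggatctgttatctt

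AATAAA was searched on the deposited strand of all 60 bases. It was present in A_52_P108850 of St8sia1, starting at base 51, and in none of the other 18 probes of the set; 4.78% of all 41174 probes hold it. On the minus strand A_52_P108850 lies closest to the 3′ side of the St8sia1 probes. Exon and UTR positions of the probes were not determined, since no mm7 annotation was used here.

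The arrays were read as log2 processed signal relative to the 75th percentile of the same array, so a value of 0 is the signal that 75% of spots do not exceed. Values of different probes are not comparable as transcript levels, and only differences between arrays are read. Between 22182 and 28137 probes were well above background per array, the lowest number on wild-type replicate 2, and arrays correlated at 0.969 to 0.994 over genes. Npc1 itself was 3.98-fold lower in Npc1-/- cerebellum, at -2.53, -2.44, -2.32 and -2.60 against -0.52, -0.40, -0.64 and -0.37 (limma, log2 difference -1.99 ± 0.10 SE, adjusted p = 0.00045, n = 4 per genotype); where its probe lies relative to the mutation was not determined. The mean signals of the granule cell and Purkinje cell markers were above 0 on every array, at 2.73 to 3.22 and 4.52 to 5.12. The forebrain marker Tbr1 was not well above background on enough arrays to be tested. The arrays lay on 4 slides, of which 3 held both genotypes (slides 2, 3 and 4); within-slide differences below are in that order and each rests on 1 wild-type array.

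None of the 10 enzymes passed the test for a difference between genotypes. Their log2 differences, Npc1-/- minus wild type, lay between -0.20 for St3gal2 and 0.12 for Sgms1, 8 below 0 and 2 above. By limma with Benjamini-Hochberg adjustment over all genes, 0 of 10 reached an adjusted p under 0.05 and 0 of 10 an unadjusted p under 0.05. Over all genes tested, 138 genes or 0.767% passed (132 higher, 0.734%, and 6 lower, 0.0334%) and 7.4% had an unadjusted p under 0.05. The number for all genes fell to 58, 60 and 55 without Npc1-/- replicates 1, 2 and 4, and to 86 without wild-type replicate 4; the number for the enzymes was 0 each time. The smallest unadjusted p of the set was 0.0747, for Sptlc1. In no enzyme did the 4 Npc1-/- arrays lie wholly above or below the 4 wild-type arrays, which 4.92% of all genes do.

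The 95% intervals of the 10 differences all held 0. They limit the size of a difference that could have gone undetected on the probe used for each gene, taken 1 gene at a time. The lowest bound was -0.53, or 1.44-fold lower, for B3galt4, and the highest was 0.59, or 1.5-fold higher, for Sgms1. A_52_P59916 of Sptlc2 and A_52_P319055 of St8sia1, probes not used for their genes, had wider intervals that reached -0.78 and 0.87. The median of the 10 differences was -0.09, and that of all genes tested was -0.02. All 10 lay within 0.2 of 0 on the log2 scale, as did 67.3% of all genes, and 53.4% of all genes lay below 0.

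**Figure D1:**
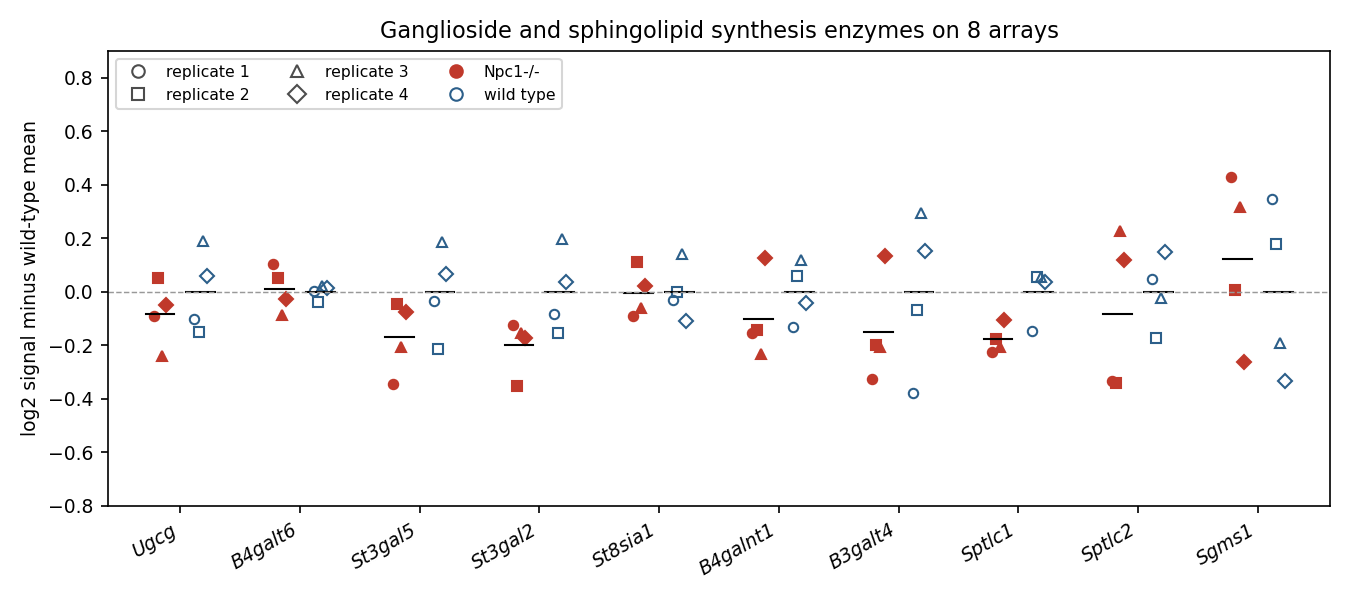
Log2 signal of the 10 enzymes on each of the 8 arrays, minus the wild-type mean of the same gene, with filled red marks for Npc1-/- and open blue marks for wild type, a marker shape for each replicate number and a bar at each group mean. The groups overlap for all 10 genes, Sptlc1 and St3gal2 have the most arrays on separate sides, and Sgms1, B3galt4 and Sptlc2 scatter most.

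Serine palmitoyltransferase commits serine to sphingolipid synthesis, and Sptlc1 and Sptlc2 encode its obligate subunit and a catalytic subunit. Sptlc1 read 0.39, 0.44, 0.41 and 0.51 on Npc1-/- arrays 1 to 4 and 0.47, 0.67, 0.67 and 0.65 on wild-type arrays 1 to 4. The overlap of the groups came from wild-type replicate 1, which lay below Npc1-/- replicate 4, while the other 3 wild-type arrays lay above every Npc1-/- array. The difference was -0.18 ± 0.09 (SE, adjusted p = 0.752), with a 95% interval of -0.38 to 0.02, and it was -0.23, -0.22 and -0.05 within slides.

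Sptlc2 read -0.59, -0.60, -0.03 and -0.14 in Npc1-/- and -0.21, -0.43, -0.28 and -0.11 in wild type. Npc1-/- replicates 1 and 2 were the lowest arrays and Npc1-/- replicate 3 was the highest, so the mutant arrays spanned the wild-type range. The difference was -0.08 ± 0.15 (adjusted p = 0.864), and within slides it took both signs, at -0.32, 0.06 and 0.17. Its 3 probes, printed above, gave -0.07 for A_51_P321331, -0.08 for A_52_P200244 and -0.34 for A_52_P59916. The last had the largest difference of the 19 probes, and wild-type replicate 3, at -2.55, stood above the other 7 arrays, which read -3.72 to -3.17.

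Sgms1 makes sphingomyelin from ceramide in the Golgi. It read 1.88, 1.46, 1.77 and 1.19 in Npc1-/- and 1.80, 1.63, 1.26 and 1.12 in wild type, with high and low arrays in both groups. The difference was 0.12 ± 0.20 (adjusted p = 0.85), the interval ran from -0.34 to 0.59, and the within-slide values were 0.21, -0.09 and -0.03. Its other probe gave 0.09. Sgms1 had the largest spread of the set, a within-group SD of 0.32, against a median of 0.20 over all genes.

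Ugcg, glucosylceramide synthase, takes the step from ceramide toward all the gangliosides in the set. On A_51_P481342, the probe used for the gene, it read 2.17, 2.31, 2.02 and 2.21 in Npc1-/- and 2.16, 2.11, 2.45 and 2.32 in wild type. Npc1-/- replicate 3 was lowest and wild-type replicate 3 highest, with the other 6 arrays interleaved. The difference was -0.08 ± 0.11 (adjusted p = 0.814), with an interval of -0.34 to 0.17. The other Ugcg probes gave -0.03 for A_51_P332717 and -0.04 for A_52_P95910, so that the 3 positions differed by less than the SE of each. Within slides the gene differed by -0.13, 0.08 and -0.14.

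B4galt6 adds galactose to make lactosylceramide. It was the steadiest of the 10, with readings of 1.09, 1.04, 0.90 and 0.96 in Npc1-/- and 0.99, 0.95, 1.01 and 1.00 in wild type. The wild-type arrays lay inside the range of the Npc1-/- arrays. The difference was 0.01 ± 0.08 (adjusted p = 0.975), and its interval of -0.18 to 0.20 was the narrowest of the set. Its within-group SD of 0.06 was larger than that of only 1.08% of genes.

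St3gal5 makes GM3, the simplest ganglioside of the main series and the precursor of the others. It read 3.92, 4.22, 4.06 and 4.19 in Npc1-/- and 4.23, 4.05, 4.45 and 4.33 in wild type. The lowest array was Npc1-/- replicate 1 and the highest was wild-type replicate 3, while wild-type replicate 2 lay among the Npc1-/- arrays. The difference was -0.17 ± 0.12 (adjusted p = 0.752), and it was -0.23, 0.00 and -0.17 within slides.

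St8sia1 adds a second sialic acid to GM3 to make GD3, which opens the b-series. On A_52_P108850 it read 1.93, 2.13, 1.96 and 2.04 in Npc1-/- and 1.99, 2.02, 2.16 and 1.91 in wild type, fully interleaved. The difference was -0.01 ± 0.09 (adjusted p = 0.983). The other St8sia1 probes, A_51_P455356 and A_52_P319055, were well above background on 7 and 6 of the 8 arrays and gave -0.01 ± 0.15 and 0.19 ± 0.30, the second spread over -5.46 to -3.94 within Npc1-/- alone. Its 3 probes are thus read with unequal precision, and the gene's value rests on A_52_P108850.

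B4galnt1, the GM2 and GD2 synthase, starts the complex gangliosides that dominate in adult brain. It read 0.19, 0.20, 0.11 and 0.47 in Npc1-/- and 0.21, 0.40, 0.46 and 0.30 in wild type. Npc1-/- replicates 1, 2 and 3 were the lowest arrays and Npc1-/- replicate 4 was the highest. The difference was -0.10 ± 0.11 (adjusted p = 0.786), and its other probe gave -0.13 ± 0.17. Within slides the gene differed by -0.26, -0.07 and -0.10.

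B3galt4 adds the next galactose, turning GM2 into GM1. It read -1.46, -1.33, -1.34 and -1.0 in Npc1-/- and -1.51, -1.20, -0.84 and -0.98 in wild type. Wild-type replicate 1 was the lowest array and wild-type replicate 3 the highest, so the wild-type group spanned the mutant group. The difference was -0.15 ± 0.17 (adjusted p = 0.786), and within slides it was -0.49, -0.03 and 0.17.

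St3gal2 caps the terminal galactose with sialic acid, as in the step from GM1 to GD1a. It read 3.27, 3.04, 3.24 and 3.22 in Npc1-/- and 3.31, 3.24, 3.59 and 3.43 in wild type. Npc1-/- replicate 1 lay above wild-type replicate 2, and the other 3 wild-type arrays lay above all Npc1-/- arrays. The difference, -0.20 ± 0.11, was the largest of the 10 and did not pass (unadjusted p = 0.098, adjusted p = 0.752, interval -0.44 to 0.05). It was -0.55 on slide 2, which holds wild-type replicate 3, and 0.01 and -0.07 on slides 3 and 4. The other St3gal2 probe, whose listed position spans more than a probe length (chr8:109562513-109567626), gave -0.13 ± 0.11.

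At the level of probes, all 19 passed the filter on dim signal and 0 passed the test over 27164 probes (limma, smallest adjusted p = 0.811), where 0.523% of all probes did. Their differences ran from -0.34 for A_52_P59916 of Sptlc2 to 0.19 for A_52_P319055 of St8sia1, and 15 were below 0. Probes of a gene are read on the same arrays and are not separate replicates. Whether they read the same transcript form was not determined. Of the 10 genes, 4 had 1 probe, 3 had 2 and 3 had 3.

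**Figure D2:**
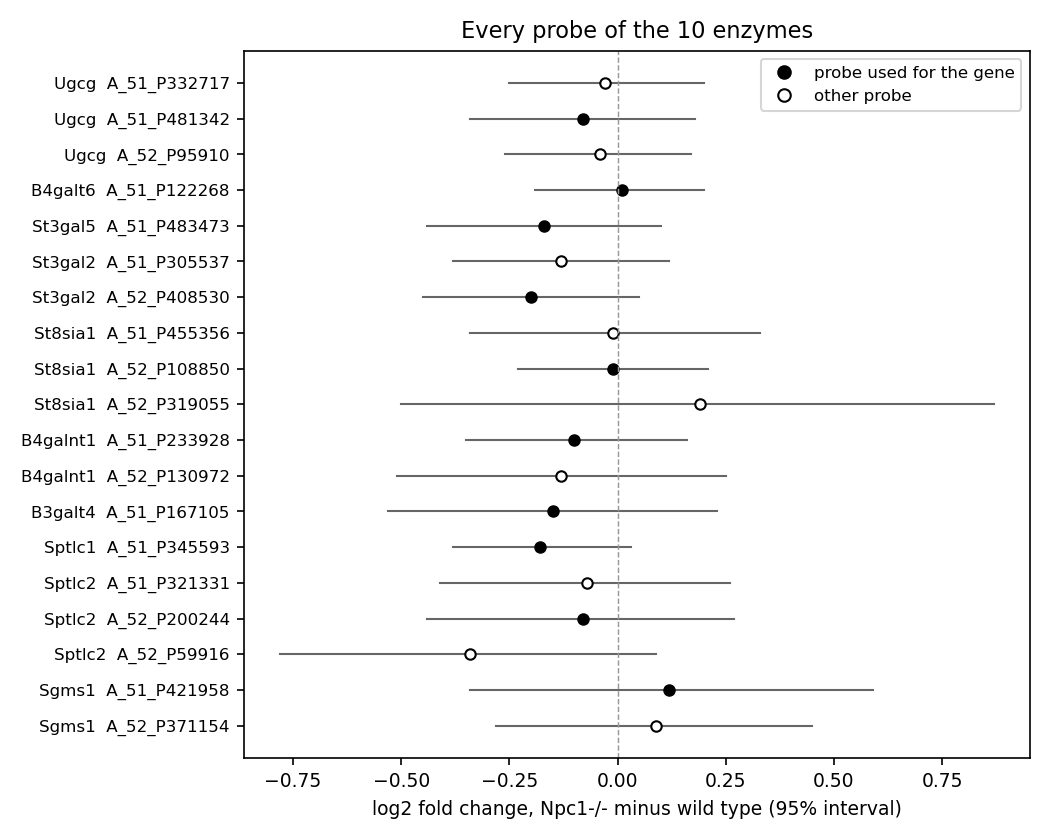
Log2 fold change of each of the 19 probes, Npc1-/- minus wild type, with its 95% interval from limma, filled where the probe was used for its gene. All intervals cross 0, and the widest is that of A_52_P319055 of St8sia1.

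The array that stood out over the set was wild-type replicate 3. It gave the highest value of the 8 arrays for 6 of 10 enzymes (Ugcg, St3gal5, St3gal2, St8sia1, B3galt4 and Sptlc1), and for 30.8% of all genes. The same array gave the lowest value for 0 of 10 enzymes and for 23.0% of all genes. The median of the 10 enzymes, each centred on its mean over the 8 arrays, was -0.09, -0.07, -0.11 and 0.00 on the Npc1-/- arrays and -0.01, -0.02, 0.16 and 0.11 on the wild-type arrays. Wild-type replicates 3 and 4 were thus above every Npc1-/- array, and wild-type replicates 1 and 2 lay within their range. On wild-type replicate 3 the median of the 9 Purkinje cell markers was also highest, at 0.47 against -0.21 to 0.12 on the other 7 arrays; its part in the enzyme values was not tested. With wild-type replicates 2 and 3 both left out, a choice made after the values were seen, the median difference of the 10 enzymes was -0.05 and none passed. In whole cerebellum, fewer cells of a type and less RNA per cell cannot be told apart.

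The other genes of sphingolipid metabolism were taken from 7 lists by role, 78 genes in all, of which 71 were tested. None of the 71 passed (0 higher, 0 lower; 0.767% of all genes passed), and 10 had an unadjusted p under 0.05 by limma, where 7.4% of all genes did. The median difference of the 71 was -0.07. Groups did not overlap for 7 of the 71 genes, 2 higher in Npc1-/- and 5 lower, where 2.96% and 1.95% of all genes do so.

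**Figure D3:**
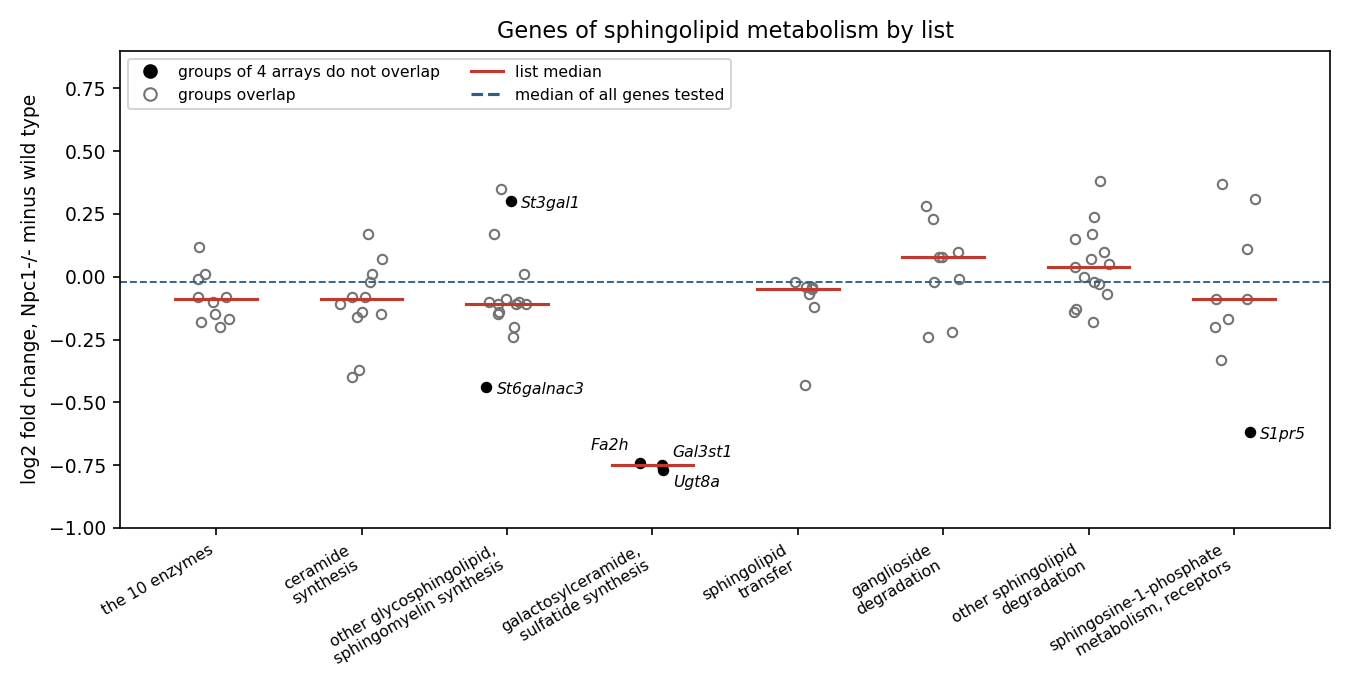
Log2 fold change, Npc1-/- minus wild type, of the 10 enzymes and of the tested genes of the 7 other lists, with filled points where the 4 arrays of each group do not overlap, a red bar at each list median and a dashed line at the median of all genes, -0.02. The 10 enzymes lie within 0.2 of 0 and the 3 genes of galactosylceramide and sulfatide synthesis lie near -0.75. A gene that is not reported here is not drawn.

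Closest to the enzymes are the other genes of ceramide synthesis, which encode the small subunits and Ormdl inhibitors of serine palmitoyltransferase, ceramide synthases and desaturases. Of 15 listed, 12 were tested, 0 passed and the median was -0.09, equal to that of the 10 enzymes. Only 13 of the 15 had a probe under their name on the array. Sptlc3, Cers1 and Cers3 were not tested, for lack of such a probe or of signal well above background on enough arrays. The genes with the smallest p were Cers2, the synthase for very long acyl chains, at -0.40 ± 0.15 (adjusted p = 0.552), and Ormdl1, at -0.37 ± 0.16 (adjusted p = 0.658). Cers2 read 1.43, 1.58, 1.51 and 1.69 in Npc1-/- and 1.96, 2.22, 1.56 and 2.05 in wild type, where only wild-type replicate 3 lay among the Npc1-/- arrays.

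Among 16 other glycosphingolipid and sphingomyelin synthesis genes, 15 were tested (A4galt was not), 0 passed and the median was -0.11. They include the paralogs of the enzymes above. B4galt5, the other lactosylceramide synthase, differed by -0.11 (adjusted p = 0.82). Its signal was dim, well above background on 4 Npc1-/- arrays and 3 wild-type arrays. St8sia5, which extends the complex gangliosides, differed by 0.01 (adjusted p = 0.987). Both were named here after their values were seen. St6galnac3, an alpha-N-acetylgalactosaminide sialyltransferase, read -3.16, -2.76, -3.03 and -2.68 in Npc1-/- and -2.63, -2.53, -2.32 and -2.40 in wild type. All its Npc1-/- arrays were below all wild-type arrays, and the difference of -0.44 ± 0.13 had an unadjusted p of 0.00967 and an adjusted p of 0.357. St3gal1, which sialylates the same terminal galactose as St3gal2 but mainly on proteins, read -3.41, -2.91, -3.41 and -3.39 against -3.44, -3.65, -3.54 and -3.69. Its groups did not overlap in the opposite direction, by margins that were small except for Npc1-/- replicate 2, and the difference was 0.30 ± 0.14 (adjusted p = 0.692).

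Galactosylceramide and sulfatide, the lipids of myelin, are made on the other branch from ceramide, where Ugt8a adds galactose in place of the glucose that Ugcg adds. Ugt8a read 3.06, 3.33, 3.27 and 3.52 in Npc1-/- and 3.83, 4.45, 3.89 and 4.09 in wild type. Every Npc1-/- array was below every wild-type array, and the difference was -0.77 ± 0.16, or 1.71-fold lower (unadjusted p = 0.00115, adjusted p = 0.0968). Fa2h, which hydroxylates the fatty acid of these lipids, read 0.79, 0.86, 0.77 and 1.08 against 1.54, 2.01, 1.23 and 1.70, again without overlap, at -0.74 ± 0.17 (adjusted p = 0.124). Gal3st1, the sulfotransferase that completes sulfatide, was named after its values were seen and differed by -0.75 ± 0.19 (adjusted p = 0.232). Its groups did not overlap by a narrow margin, with Npc1-/- replicate 4 at 0.52 and wild-type replicate 1 at 0.55. None of the 3 passed the threshold, and their median was -0.75.

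The differences of Ugt8a held their sign within each slide, at -0.56, -1.16 and -0.57, as did those of Fa2h at -0.37, -1.07 and -0.76. With the slide as a block Ugt8a differed by -0.80 (adjusted p = 0.341) and Fa2h by -0.77 (adjusted p = 0.282). With arrays weighted by their agreement with the rest, both passed, Ugt8a at -0.84 (adjusted p = 0.0194; 0.0194 to 0.341 over all alternatives) and Fa2h at -0.83 (adjusted p = 0.0118; 0.0118 to 0.382 over all alternatives). Ugt8a minus Ugcg on the same array, centred on the wild-type mean, was -0.92, -0.79, -0.55 and -0.50 in Npc1-/- and -0.13, 0.53, -0.36 and -0.04 in wild type. This pair was chosen after its values were seen, so its mean difference of -0.69 is a description without a test.

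Markers of myelinating oligodendrocytes were read beside the 3 genes. All 10 had lower mean values in Npc1-/-, 7 without overlap of the groups (1.95% of all genes are lower without overlap), with a median of -0.58. By limma 0 of 10 passed and 8 had an unadjusted p under 0.05, where 0.767% and 7.4% of all genes did. Their mean level ran from 2.56 to 2.94 on the Npc1-/- arrays and from 3.10 to 3.59 on the wild-type arrays, and all 10 passed the filter on dim signal. On single arrays the list medians of the 3 genes were -0.62, -0.35, -0.41 and -0.16 in Npc1-/- and 0.15, 0.76, 0.21 and 0.41 in wild type, and those of the markers were -0.40, -0.29, -0.36 and -0.04 and 0.04, 0.58, 0.16 and 0.32. Wild-type replicate 2 was highest and Npc1-/- replicate 1 lowest in both. The part of oligodendrocyte number or maturity in the 3 genes was not tested.

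**Figure D4:**
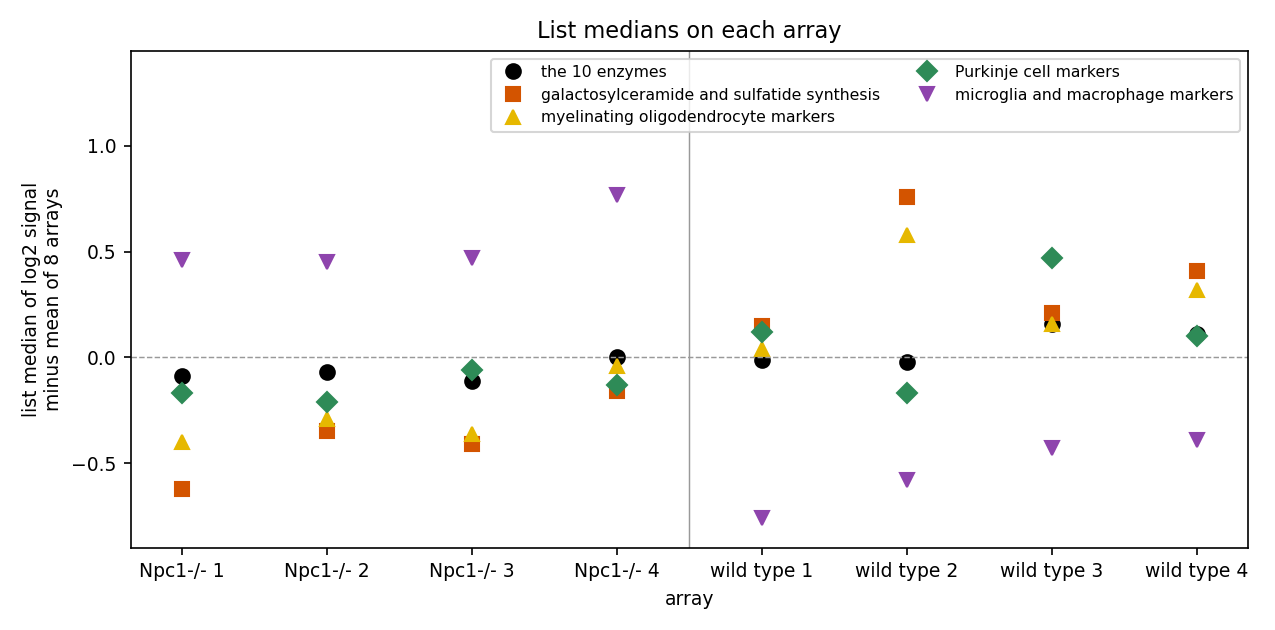
Median over the genes of a list, on each array, of log2 signal minus the gene's mean over the 8 arrays, for the 10 enzymes and 4 other lists. The 10 enzymes stay between -0.11 and 0.16, galactosylceramide and sulfatide synthesis follows the oligodendrocyte markers, and microglia markers separate the genotypes.

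Lysosomal breakdown of gangliosides was covered by 10 genes, all tested, of which 0 passed, with a median of 0.08. Ctsa, the protective protein of lysosomal sialidase and galactosidase, differed by 0.23 ± 0.10 (adjusted p = 0.69). The 10 microglia and macrophage markers were higher in value in Npc1-/- without exception, 5 of 10 passed (0.734% of all genes passed as higher), and their median was 0.98. Their mean level ran from 0.06 to 0.35 on the Npc1-/- arrays and from -1.21 to -0.93 on the wild-type arrays, and their part in the values of lysosomal genes was not tested.

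The remaining lists lay close to 0. Of 16 genes for the breakdown of other sphingolipids, 15 were tested (Acer1 was not), 0 passed and the median was 0.04; the smallest p-values were those of Asah2, a neutral ceramidase, at 0.38 ± 0.21, and Scarb2, the receptor that carries glucocerebrosidase to lysosomes, at -0.18 ± 0.12 (adjusted p = 0.752 for both). Of 8 sphingolipid transfer genes, 7 were tested (Spns2 was not), 0 passed and the median was -0.05, with Gltp, the glycolipid transfer protein, at -0.43 ± 0.16 (adjusted p = 0.542) and Vapb, an endoplasmic reticulum tether, at -0.12 ± 0.09 (adjusted p = 0.752). Of 10 genes for sphingosine-1-phosphate and its receptors, 9 were tested (S1pr4 was not), 0 passed and the median was -0.09. S1pr5, a receptor found on oligodendrocytes in brain, read 0.07, 0.26, 0.49 and 0.71 in Npc1-/- and 0.92, 1.20, 0.88 and 0.99 in wild type. Its groups did not overlap, at -0.62 ± 0.15 (adjusted p = 0.175), beside the lower oligodendrocyte marker values given above. Sphk1, a sphingosine kinase, differed by 0.31 ± 0.13 (adjusted p = 0.665).

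**Figure D5:**
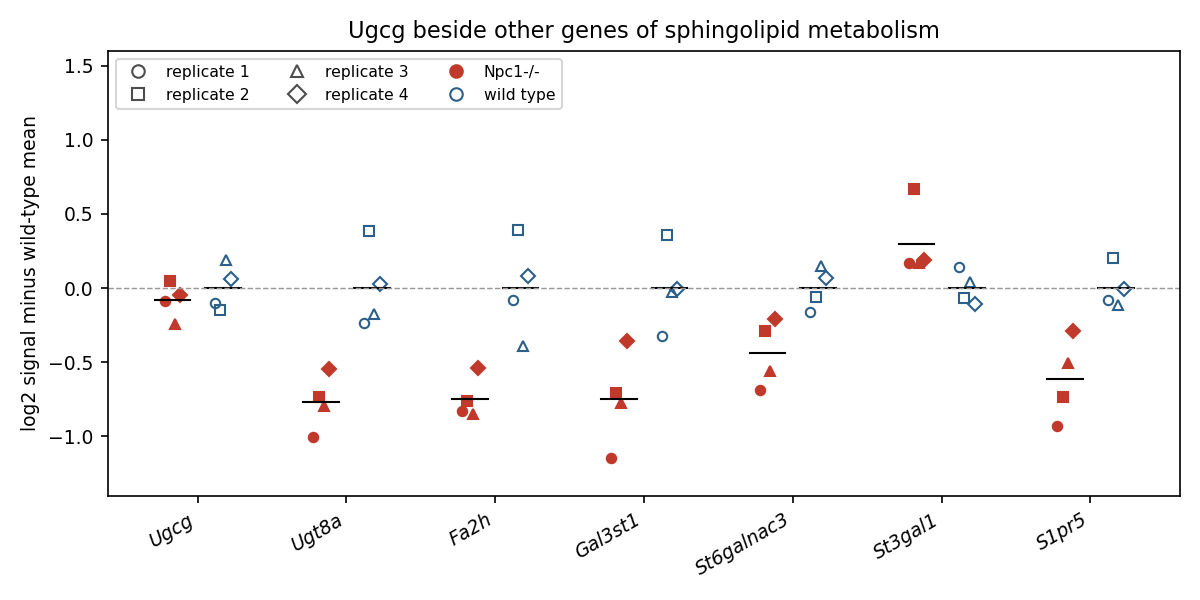
Log2 signal on each array minus the wild-type mean, for Ugcg and 6 other genes of sphingolipid metabolism, with filled red marks for Npc1-/-, open blue marks for wild type and a bar at each group mean. Ugcg overlaps between genotypes, and Ugt8a, Fa2h and Gal3st1 are lower on all 4 Npc1-/- arrays.

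The other marker lists gave no gene past the threshold, which 0.767% of all genes passed. Of the 9 astrocyte and Bergmann glia markers, 1 was higher in Npc1-/- without overlap of the groups (2.96% of all genes). Of the 9 Purkinje cell markers, 1 was lower without overlap (1.95% of all genes). The median difference was -0.22 for 9 Purkinje cell markers, all below 0, -0.23 for 10 granule cell markers, all below 0, and 0.05 for 9 astrocyte and Bergmann glia markers. It was -0.08 for 6 endothelial markers, 0.05 for 5 choroid plexus markers and -0.07 for 3 forebrain markers. Over all genes tested, 53.4% had a difference below 0. On wild-type replicate 2 the Purkinje cell list median, -0.17, lay within the Npc1-/- range of -0.21 to -0.06. The granule cell list median on that array, -0.06, lay within the Npc1-/- range of -0.23 to 0.03. Wild-type replicate 3 was the highest array for both lists, at 0.47 and 0.19. The median of the 10 enzymes, -0.09, lay between those of the neuronal lists and that of all genes; the part of cell makeup in it was not tested.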

How the data were processed

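The authors deposited 1-colour Agilent intensity values, which the submitters' processing notes credit to Agilent Feature Extraction 9.5. Per the file headers, these signals had background removed within each array, with no scaling from array to array. Here they were put on a log2 scale and each array's 75th percentile over non-control spots was subtracted. Spots flagged as outliers (74 to 115 per array) were set missing and no spot was saturated. Repeated spots were averaged. A probe had to be well above background on 4 or more of the 8 arrays (27164 of 41174), and each gene was read from its brightest probe (17983 genes). A RefSeq table of GRCm38.p6 updated the names of 22944 probes through accessions, 6664 through symbols and 3108 through synonyms; 8458 kept the files' name.

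Arrays of both genotypes entered a limma 3.58.1 fit (R 4.3.3; lmFit, eBayes, two-sided tests) with Benjamini-Hochberg adjustment over all genes or probes and a threshold of 0.05. The fit was tested on simulated arrays with the means and spreads of the tested genes. It recovered 11 of 50 genes changed by a log2 difference of 0.5, so most differences of that size did not pass. It recovered 36 of 50 at 1, 38 of 50 at -1 and 50 of 50 at 2. Alternatives changed the scaling, background correction, dim filter, probe rule, blocks, array weights and arrays used. Plots used matplotlib 3.10.9.

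Named genes were all 10 enzymes, Npc1, and per list those past the threshold and the 2 with the smallest p; others are marked where named, and some genes of the lists, though counted, are not reported here. The enzymes and lists were chosen with earlier results of these data known. The labels give 4 numbered replicates per genotype, and that number limits precision.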

Additional observations from a re-analysis of the deposited data

Results flagged for a closer look

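In 52 groups of 4 arrays (26 genes in each genotype), 2 held an array far from the other 3, where chance gives about 1 in 20. Sptlc1 read 0.47 on wild-type replicate 1 and 0.65 to 0.67 on the other wild-type arrays. St3gal1 read -2.91 on Npc1-/- replicate 2 and -3.41 to -3.39 on the other Npc1-/- arrays.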

How the results depend on the processing

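Over 190 refits of the 10 enzymes (19 alternatives each), none passed the threshold (smallest adjusted p = 0.279) and 176 kept their sign. The 14 that changed sign were near 0. St8sia1 became 0.05 with quantile normalization, 0.06 with the mean of all probes, 0.00 with the scan day as a block, 0.06 with array weights and 0.07 with wild-type replicates 2 and 3 left out. Ugcg became 0.02 and B4galt6 -0.02 with normexp. Leaving out arrays singly, ranges that crossed 0 were -0.05 to 0.04 for St8sia1, -0.02 to 0.04 for B4galt6 and -0.19 to 0.00 for Sptlc2. For probes they were -0.06 to 0.03 (A_51_P332717) and -0.08 to 0.01 (A_52_P95910) of Ugcg, -0.12 to 0.05 (A_51_P455356) and -0.04 to 0.47 (A_52_P319055) of St8sia1, -0.02 to 0.19 (A_52_P371154 of Sgms1) and -0.16 to 0.03 (A_51_P321331 of Sptlc2). A_52_P95910 was 0.00 with quantile normalization, 0.05 with normexp and 0.00 with array weights, A_51_P332717 was 0.01 with normexp and 0.05 with array weights, A_51_P455356 was 0.02 with array weights, and A_52_P319055 was -0.01 with wild-type replicates 2 and 3 left out (an alternative chosen after seeing the data). The median of the 10 enzymes ran from -0.16 to -0.05 with single arrays left out, lowest without Npc1-/- replicate 4. The number of pathway genes past the threshold, 0 as reported, was 1 with quantile normalization, normexp, the filter on all 8 arrays and the slide as a random block, and 4 with array weights (among them Ugt8a, Fa2h and S1pr5, the last at -0.72, adjusted p = 0.0372; 0.0372 to 0.548 over all alternatives). The number of all genes past it, 138 as reported, was 87 with quantile normalization, 59 without a dim filter, 88 with the filter on all 8 arrays, 38 with the slide as a block, 280 with array weights, 86 with wild-type replicates 2 and 3 left out and 55 to 148 with single arrays left out. Same-numbered arrays deviated together at correlations of 0.149, 0.038, -0.445 and 0.201, so the numbers were not taken to pair samples; with the replicate block 27 genes and 0 of the 10 enzymes passed. The causes of these shifts were not tested. Signal near background limits A_51_P455356 and A_52_P319055 of St8sia1, and B4galt5.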
